A study of Mus musculus with 14 samples.

Results

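The SOX10 ChIP regions of the first 118 Mb of mouse chromosome 4 were denser, stronger and wider than those of the other autosomes. They are the 762 regions of chromosome 4 that end at or below position 118000000 (mm9), out of 7929 regions in the deposited list. The stretch was chosen from the signal and the density of these same regions, so its signal, density and spacing are given as a description without a test. The DNA copy number of the stretch in these tumors was not examined, and the cause of the differences was not tested. Because it is 1 list for pooled samples, no value has a replicate error. Intervals below cover counting error at 95%, and regions that lie close together are not independent of each other.

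The study profiled chromatin of mouse mammary cells and of PY230 tumors by ChIPmentation, in which a transposase adds sequencing adapters to chromatin held on beads. The list sets 2 SOX10 ChIP samples, whose PY230 cells carried SOX10-AVI and BirA, against 1 control sample of PY230 cells. All 3 came from adult C57BL6J hosts in which transplanted PY230 cells, a mouse mammary tumor line, had formed mammary tumors that were dissected and sorted, and all 3 were pulled down on streptavidin beads. What drives the tagged SOX10, and what the control cells carried, is not given in the sources used here, and the tumors come from a single cell line.

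SOX10 is an HMG-box transcription factor of the SoxE family. It bends DNA when it binds and is best known for specifying neural crest cells and their glial and melanocyte descendants. In the mammary gland it is known from fetal stem cells and from luminal progenitor and basal cells, and from basal-like tumors. BirA attaches biotin to the AVI tag, so that streptavidin captures tagged SOX10 with the DNA it is crosslinked to.

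The domain held 6.46 regions per Mb (95% Poisson interval 6.01 to 6.93). The rest of chromosome 4 held 73 regions at 1.98 per Mb (1.55 to 2.48), and the other autosomes together held 7020 at 3.06 per Mb (2.99 to 3.13). The domain was thus 3.27 times as dense as the rest of its own chromosome and 2.11 times as dense as the other autosomes. It took up 4.52% of the summed chromosome length and held 9.61% of the list. None of the 18 other autosomes taken whole was as dense, the highest being chromosome 19 at 5.17 per Mb. Those chromosomes were not trimmed by density as the domain was. Chromosome 4 taken whole held 5.39 per Mb, close to chromosome 19 and to chromosome 15 at 5.15. The end of chromosome 11 beyond 110 Mb was denser than the domain, with 245 regions at 21.0 per Mb (18.5 to 23.8), but it spans only 11.7 Mb.

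The deposited signal, whose unit is not stated, had a median of 0.0392 in the domain (quartiles 0.0307 and 0.0491). It was 0.0239 on the rest of chromosome 4 (0.0165 and 0.0304) and 0.0271 on the other autosomes (0.0193 and 0.0359), so the domain stood 1.64 and 1.45 times as high. Taken whole, chromosome 4 had a median signal of 0.0383, and the other autosomes ran from 0.0231 (chromosome 3) to 0.0343 (chromosome 11). The end of chromosome 11 beyond 110 Mb was stronger than the domain, with a median of 0.0460 (quartiles 0.0350 and 0.0559). In 99.9% of the 7282 regions under 1500 bp and above 0, signal times width fell within 0.05 steps of a whole multiple of 1 step, as a mean coverage per base would. In the 582 wider regions the share was 70.1%. Read as reads of 54 bases, the median member had a value of 12.9 read equivalents (quartiles 7.65 and 20.0), against 5.0 on the rest of chromosome 4 and 7.0 on the other autosomes. Members with a value under 10 made up 36.9% of the domain, against 67.7% of regions on the other autosomes.

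The shift was a property of the bulk of the members and not of a few extreme ones. Among members, 55.9% had a signal above the upper quartile of the list (background 25.0%) and 6.69% one below its lower quartile (background 25.0%). The 10% of the list with the highest signal took in 214 members, or 28.1%, where the background is 10.0%. On chromosome 11 beyond 110 Mb, 68.6% of regions were above the upper quartile and 44.5% were among this 10%. The 1% with the highest signal took in only 3 members, or 0.394% (exact binomial interval 0.0813% to 1.15%), against a background of 1.01%. The ratio of domain to other autosomes was 1.79 at the 10th percentile of signal, 1.59 at the lower quartile, 1.37 at the upper quartile and 1.26 at the 90th percentile. At the 99th percentile it was 0.833, with 0.0787 in the domain and 0.0945 on the other autosomes.

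**Figure D1:**
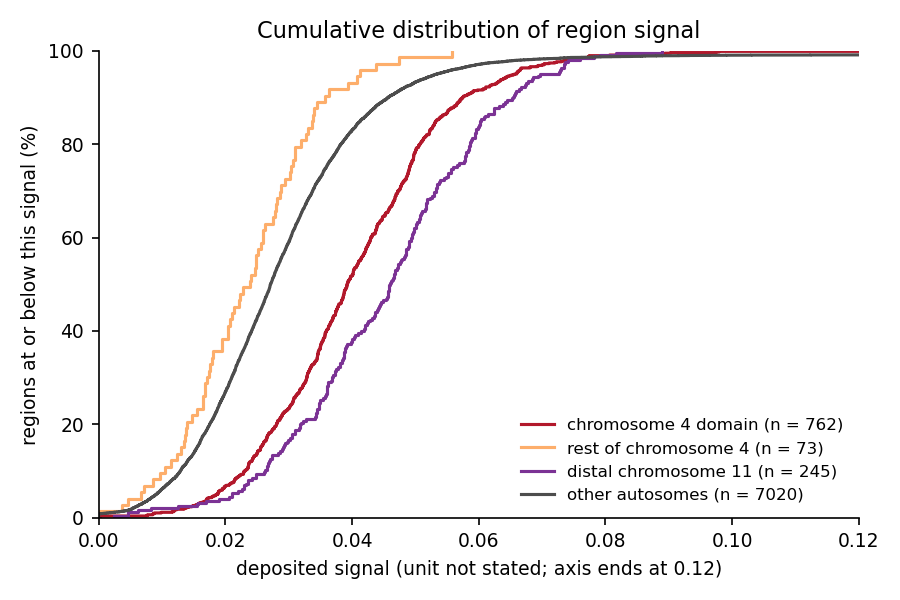
Cumulative share of regions (y axis, percent) at or below each deposited signal (x axis, unit not stated, cut at 0.12) for the chromosome 4 domain, the rest of chromosome 4, chromosome 11 beyond 110 Mb and the other autosomes. The domain curve lies to the right of the other autosomes through the median (0.0392 and 0.0271) and meets them near the top, where the 99th percentiles are 0.0787 and 0.0945.

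When the list was divided into 5 signal classes of nearly equal size, the extra density of the domain lay in the strong classes. In the strongest class the domain held 367 regions or 3.11 per Mb (2.80 to 3.45), against 0.522 per Mb on the other autosomes, 5.96 times as many. In the next class it held 1.64 per Mb against 0.598, and in the middle class 0.822 against 0.635. In the second weakest class the densities were 0.585 per Mb in the domain (0.455 to 0.740) and 0.646 on the other autosomes (0.614 to 0.680). In the weakest class the domain was lower, with 36 regions or 0.305 per Mb (0.214 to 0.422) against 0.656 (0.624 to 0.690). Counts per 1 Mb window varied more than Poisson counts would, so these intervals are too narrow to judge differences between stretches. The rest of chromosome 4 ran the other way from the domain, with 0.135 per Mb in the strongest class (0.0439 to 0.316) and 0.704 per Mb in the weakest. Distal chromosome 11, like the domain, held more strong than weak regions, at 13.0 per Mb in the strongest class and 0.772 per Mb in the weakest. The list gives no threshold for calling a region, and the part that such a threshold plays in the weak classes was not tested.

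**Figure D2:**
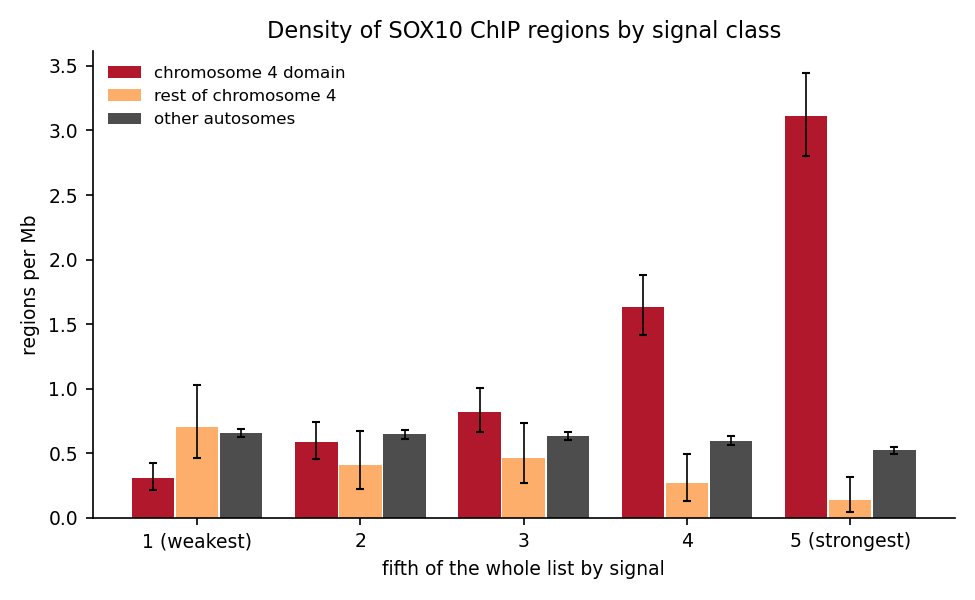
Regions per Mb (y axis) in 5 signal classes of the whole list (x axis, weakest to strongest) for the chromosome 4 domain, the rest of chromosome 4 and the other autosomes, with 95% Poisson intervals as error bars. The domain bar is 0.305 in the weakest class and 3.11 in the strongest, while the other autosomes stay between 0.522 and 0.656.

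The raised signal was found along most of the domain. The 10 whole windows of 10 Mb with at least 20 members had median signals of 0.0361 to 0.0437. From 110 to 118 Mb, 57 members had a median signal of 0.0392. Of 162 such windows on the other autosomes, 6 reached 0.0361 or more. Those 6 were both windows of chromosome 11 beyond 110 Mb and 1 each on chromosomes 1, 5, 6 and 15. At a resolution of 1 Mb, 36 of 56 domain windows with 5 or more members (64.3%) had a median signal above the upper quartile of the list, 0.0374. Of these 56, 54 were above the median of the other autosomes, 0.0271. The exceptions were 53 to 54 Mb (13 members, median 0.0268) and 107 to 108 Mb (6 members, median 0.0241), the lowest window. On the other autosomes 41 of 572 such windows had a median above the upper quartile (7.17%), and 32 of 563 (5.68%) without the end of chromosome 11.

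Signal in the domain followed local crowding only weakly. The sparsest 10 Mb window, from 70 to 80 Mb, held 8 members of median signal 0.0478, and the densest, from 80 to 90 Mb, held 126 of median signal 0.0437. Members with no neighbour within 100 kb numbered 75 and had a median signal of 0.0390 (quartiles 0.0319 and 0.0491). The 1549 such regions on the other autosomes had 0.0258 (0.0182 and 0.0342), and the 31 on the rest of chromosome 4 had 0.0179 (0.0137 and 0.0269). Across the 56 domain windows of 1 Mb with 5 or more members, the number of members and their median signal had a Spearman rho of 0.211. On the other autosomes the rho was 0.128 across 572 such windows, and on chromosome 11 beyond 110 Mb it was -0.567 across 9. All windows share the same pooled libraries, and these values are descriptions.

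**Figure D3:**
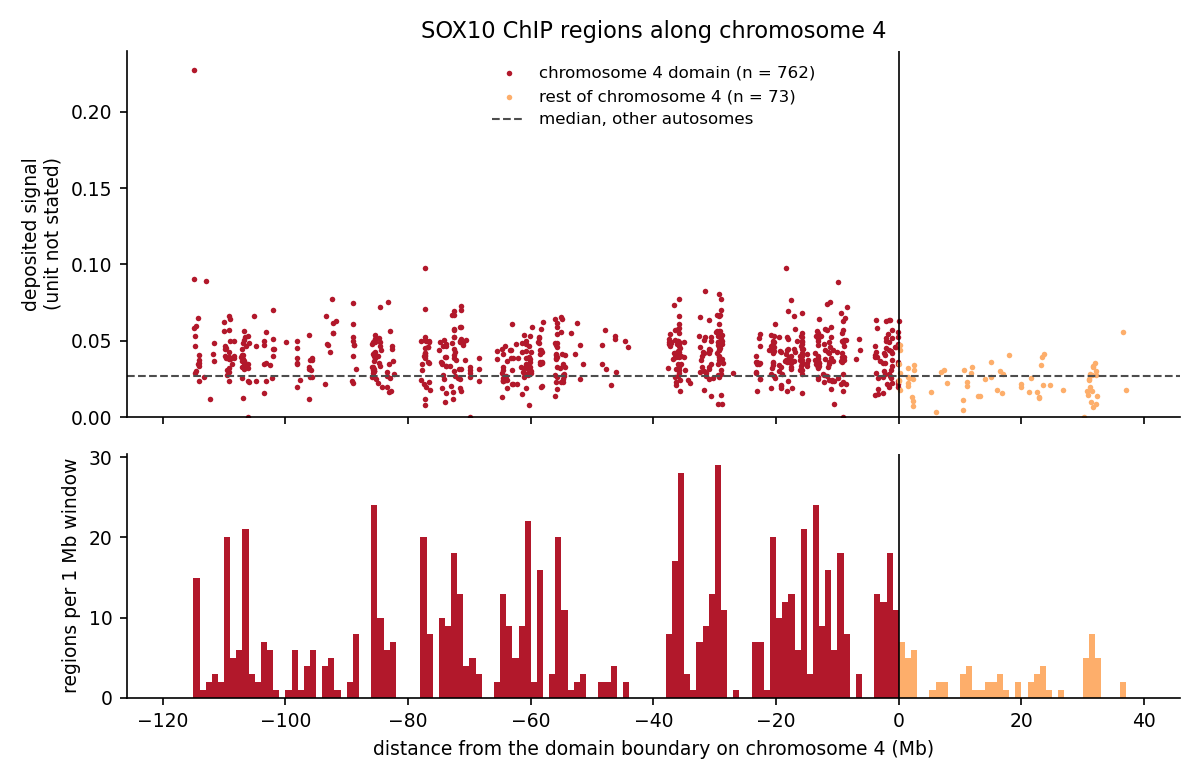
Top, deposited signal of each region (y axis, unit not stated) and bottom, regions per 1 Mb window (y axis), against distance from the domain boundary on chromosome 4 (x axis, Mb); the dashed line is the median of the other autosomes, 0.0271. Members left of the boundary lie mostly above the dashed line in crowded and sparse stretches alike, and the 73 regions to its right lie around or below it.

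Signal differed on either side of the boundary over a few Mb, while density was uneven on both. The boundary was itself placed by signal, so a difference in signal across it was largely set by that choice. The window from 116 to 118 Mb held 29 members, whose median signal was 0.0421, and the one from 118 to 120 Mb held 12 regions, whose median was 0.0260. The following windows of 2 Mb held 6, 1, 4 and 0 regions. Inside the domain, counts between 108 and 116 Mb were 26, 3, 0 and 25 members per 2 Mb, so stretches as sparse also occurred there. The last 20 members spanned 1.17 Mb with a median signal of 0.0398, and the first 20 regions after the boundary spanned 6.0 Mb with a median of 0.0247.

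The last member before the boundary lay at chr4:117958148-117960047 with a signal of 0.0631. The 4 members before it, at chr4:117891746-117892604, chr4:117898719-117899958, chr4:117942190-117943757 and chr4:117944033-117946915, had signals of 0.0350, 0.0236, 0.0560 and 0.0523. After a gap of 122 kb, the first regions on the other side, at chr4:118081707-118082483, chr4:118099816-118100698, chr4:118109777-118110297, chr4:118117480-118119055 and chr4:118119148-118119850, had signals of 0.0345, 0.0246, 0.0239, 0.0438 and 0.0174. The signals on both sides overlapped, so single regions at the boundary do not separate it.

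Width did not define the domain, but in the whole list it rose weakly with signal, which did (Spearman rho 0.160). Members were wider as well. Their median width was 845 bp (quartiles 558 and 1240), against 616 bp on the rest of chromosome 4 (445 and 911) and 675 bp on the other autosomes (486 and 949). Median widths of the 18 other autosomes lay between 615 and 742 bp, and that of whole chromosome 4 was 815 bp. Regions of 1500 bp or more made up 17.2% of the domain (131 members, background 7.34%), 2.74% of the rest of chromosome 4 and 6.35% of the other autosomes. Distal chromosome 11 was like the domain, with a median of 822 bp and 15.1% of regions at 1500 bp or more.

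The extra width lay in the 2 strongest of the 5 signal classes. In the strongest signal class the median width was 916 bp in the domain and 661 bp on the other autosomes, and in the next class it was 960 and 737 bp. In the middle and second weakest classes the medians were 731 and 667 bp in the domain, against 746 and 686 bp on the other autosomes. In the weakest class members were narrower, at 481 bp against 572 bp. Width and signal come from the same reads, and no test of their relation was made.

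**Figure D4:**
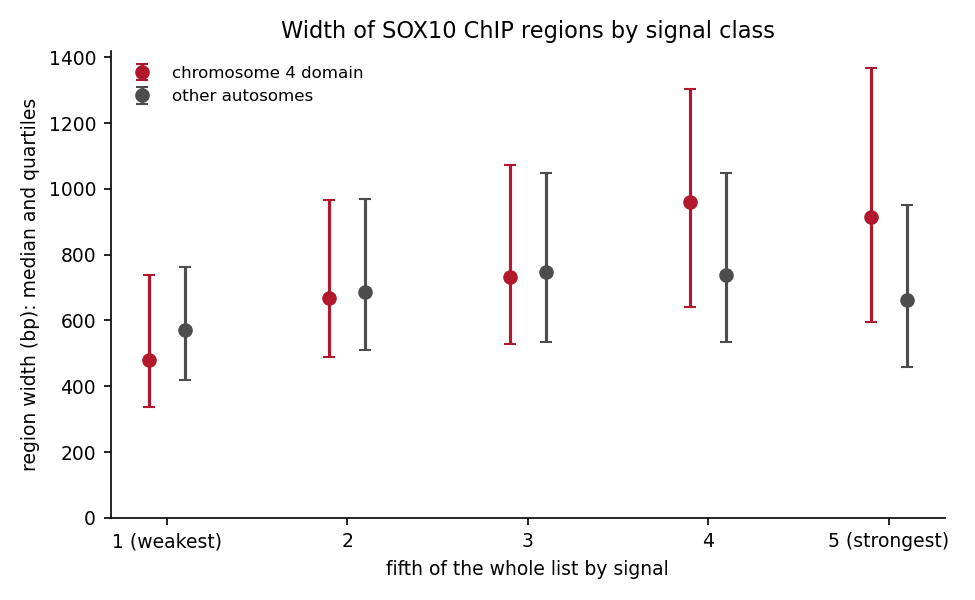
Region width in bp (y axis; points are medians, bars run between the quartiles) in 5 signal classes of the whole list (x axis) for the chromosome 4 domain and the other autosomes. The medians are 916 and 661 bp in the strongest class, and 481 and 572 bp in the weakest.

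The 5 widest members, picked out after their values were seen, ranked 1, 2, 4, 5 and 12 by width in the list, where rank 5 is shared by 2 regions. The widest of all was a member of 9185 bp at chr4:46590154-46599338, with a signal of 0.0700 and 249 read equivalents, the second highest value of the list. Next came members of 6855 bp (chr4:82139982-82146836, signal 0.0607) and 5457 bp (chr4:82155859-82161315, signal 0.0551), which belong to a single run. The remaining members had 5341 bp (chr4:88701446-88706786, signal 0.0377) and 3944 bp (chr4:102241267-102245210, signal 0.0478).

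The 10 members with the highest signal were mostly narrow, with a median width of 380 bp and 8 of 10 under 500 bp. The highest, at chr4:3092322-3092503, had a signal of 0.227 over 182 bp, or 16.0 read equivalents, and lay at the start of the listed sequence. It was 5.79 times the domain median and ranked 35 in the list. The second, at chr4:99629809-99630064, had a signal of 0.0980, so that the top member stood alone. The others, in falling order of signal, lay at chr4:40731599-40732006 (0.0975), chr4:3107759-3108476 (0.0903), chr4:5058030-5058265 (0.0894), chr4:108072987-108073359 (0.0887), chr4:86336049-86336422 (0.0829), chr4:88700650-88701034 (0.0807), chr4:82146929-82150342 (0.0775) and chr4:89048976-89049434 (0.0774). Of the 10, 6 lay in runs of neighbours less than 10 kb apart and 4 stood single. In the whole domain 49.1% of members lay in such runs (background 38.1%), so this count does not set the 10 apart. The member at chr4:82146929-82150342 was the exception in width, at 3414 bp and 102 read equivalents.

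Members lay close together. The median gap between neighbouring members was 27.2 kb (quartiles 6.76 and 104), against 158 kb on the rest of chromosome 4 (22.3 and 588) and 66.0 kb on the other autosomes (13.6 and 277). Gaps under 10 kb separated 242 of 761 neighbouring pairs, or 31.8%, where the background is 22.7%, and gaps under 1 kb separated 9.46%. On the other autosomes the shares were 21.9% and 5.36%. Spacing was closer still on chromosome 11 beyond 110 Mb, with a median gap of 13.8 kb and shares of 44.7% and 13.1%. A closer spacing goes with a higher density, so these shares describe the domain and add nothing independent of its density.

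Counted with all neighbours less than 10 kb apart joined, the domain had 520 units: 388 single members and 132 runs. The runs held 374 members, or 49.1% (background 38.1%), and runs of 5 or more held 99 members, or 13.0% (background 4.43%). On chromosome 11 beyond 110 Mb these shares were higher, at 62.4% and 24.1%. In the domain, the median signal was 0.0439 in runs of 5 or more and 0.0386 in members with no neighbour within 10 kb. Their quartiles overlapped (0.0339 and 0.0498, against 0.0298 and 0.0481).

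The domain was patchy at the scale of 1 Mb. Of its 118 windows, 31 were empty (26.3%), among them the first 3, and 31 held 10 or more members. The latter, 26.3% of the windows, held 519 members or 68.1%. On the other autosomes 33.3% of windows were empty, 6.59% held 10 or more regions, and those held 30.9% of the regions. The variance of members per window was 8.02 times the mean in the domain and 5.44 times on the other autosomes. On distal chromosome 11 it was 9.43 times the mean. The mean counts per window differed as well, at 6.46, 3.04 and 20.4 in the same order. This ratio and the shares for windows with 10 or more can both rise with the mean count. They therefore do not show that the domain was patchier than the other autosomes for its density. The longest gaps ran from 73898107 to 80316681 (6.42 Mb), from 35638190 to 40104266 (4.47 Mb) and from 91043383 to 94718361 (3.67 Mb).

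Of the 50 densest autosomal windows of 1 Mb, 17 lay in the domain, which supplied 118 of the 2461 windows compared. Distal chromosome 11 held 7 of the 50 and supplied 12 windows. The densest in the domain was the window from 88 to 89 Mb with 29 members, followed by 82 to 83 Mb with 28. Next were 32 to 33 Mb and 104 to 105 Mb with 24 each, 57 to 58 Mb with 22, and 102 to 103 Mb and 11 to 12 Mb with 21 each. The windows from 97 to 98, 40 to 41 and 62 to 63 Mb had 20 each. Median signals in these 10 windows ran from 0.0346 (11 to 12 Mb) to 0.0480 (88 to 89 Mb).

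By summed read equivalents the windows from 82 to 83 Mb (856) and from 88 to 89 Mb (778) ranked first and second of all autosomal windows. By number of regions they ranked 7 and 5. Both thus held wide as well as numerous regions, which covered 43.8 kb of the window from 82 to 83 Mb and 42.5 kb of that from 88 to 89 Mb.

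Genes were not assigned to regions, since no mm9 annotation was used here, and the locus names below are general knowledge of the mouse map that was not checked against one. Whether a region lies in a promoter, an intron or between genes is therefore not given. The window from 82 to 83 Mb is known as that of Nfib, and the window from 97 to 98 Mb as that of Nfia. Both encode nuclear factor I transcription factors, which bind a palindromic DNA motif and are known for roles in lung, brain and mammary development. The window from 88 to 89 Mb is known for the type I interferon cluster and the microRNA gene Mir31, with Mtap, a salvage enzyme of the methionine pathway, and the cell cycle inhibitor genes Cdkn2a and Cdkn2b nearby. In the GRCm38.p6 gene table, Nfib stands between Mpdz and Zdhhc21, and Mir31 between Ifne and Mtap, which is followed by Cdkn2a and Cdkn2b.

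The sequences of the regions themselves were not used here. The mature miR-31 sequences are shown because Mir31 is the microRNA gene known from the window with the most members. They are RefSeq sequences of build GRCm38.p6, read from the minus strand of chromosome 4, with bases 2 to 8, the seed that pairs with target transcripts, in capitals.
mmu-miR-31-5p: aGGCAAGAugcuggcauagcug
mmu-miR-31-3p: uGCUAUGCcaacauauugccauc

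The window of Nfib held the run with the most members, 16 regions over 49.6 kb at chr4:82139982-82189532. Regions covered 62.1% of that span. Their signals ran from 0.0291 to 0.0775 with a median of 0.0483, all above the median of the other autosomes. Together they carried 638 read equivalents of the 856 in the window. Of the window's 28 members, 18 had a signal above the upper quartile of the list. The share above it was 55.9% in the whole domain and 25.0% in the list, so this count is near that of the domain. The 3 strongest and the 4 widest members of this run lay in its first 23 kb.

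The window from 88 to 89 Mb held 2 large runs. One of 8 members spanned 33.1 kb (chr4:88573736-88606858) with signals from 0.0278 to 0.0551 and a median of 0.0487. One of 11 members spanned 44.9 kb (chr4:88680083-88725015) with signals from 0.0266 to 0.0807 and a median of 0.0457. Regions covered 45.6% of the span of the 8-member run and 40.8% of that of the 11-member run. Of the 29 members in this window, 24 were above the upper quartile of the list, a larger share than in the window of Nfib. The window of Nfia held 20 members with signals from 0.0188 to 0.0610 and a median of 0.0429. Of these 20, 12 were above the upper quartile of the list, near the share of the whole domain, 55.9%. In runs lay 11 of the 20, where the share was 49.1% in the whole domain, and the largest run had 5 members.

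**Figure D5:**
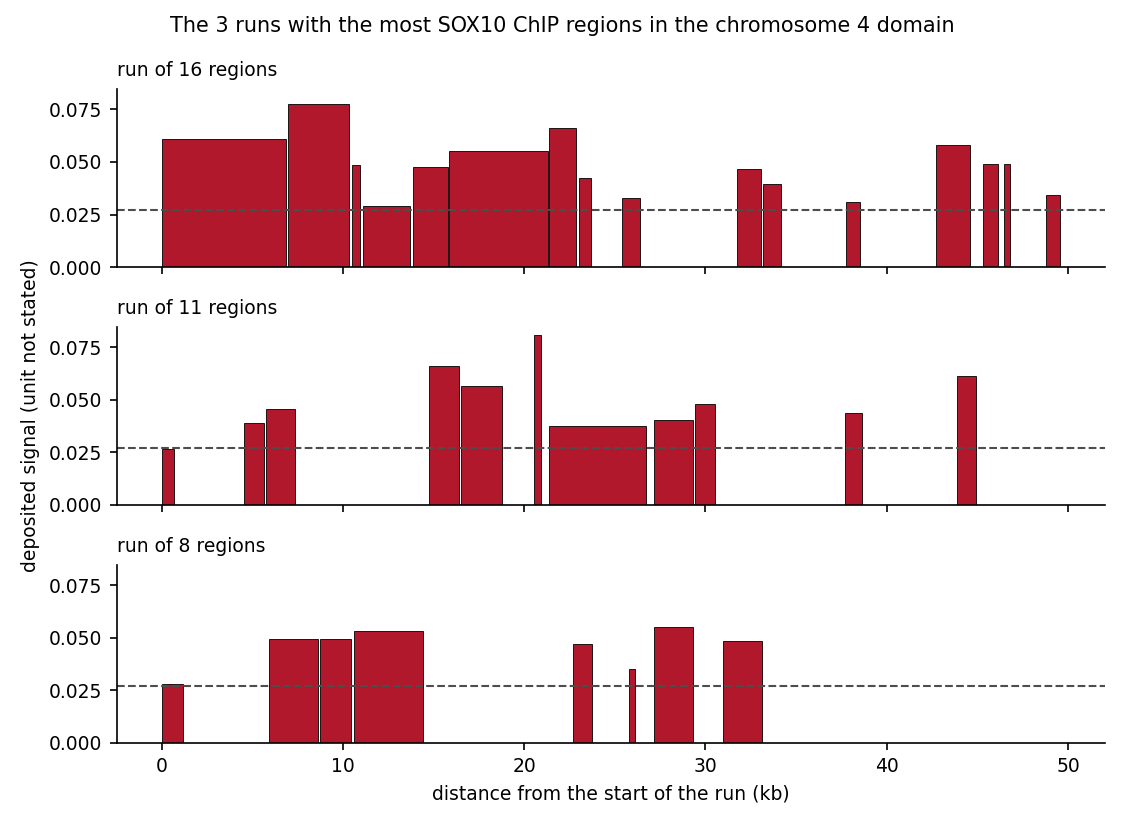
The 3 runs with the most members in the chromosome 4 domain (16, 11 and 8 regions, top to bottom), each bar a region drawn over its width (x axis, kb from the start of the run) with its deposited signal as height (y axis, unit not stated); the dashed line is the median of the other autosomes, 0.0271. All bars but the first of the 11-member run, at 0.0266, rise above the line.

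A further 4 runs had 6 members each. They lay at chr4:44107250-44127217 (median signal 0.0365), chr4:62324113-62353278 (0.0440), chr4:102237082-102258985 (0.0485) and chr4:104818751-104837022 (0.0435). The run at 62 Mb was the loosest, with 15.3% of its span covered, and the one at 102 Mb the fullest of the 4, with 44.3% covered.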

How the data were processed

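The data are 1 list of regions for both PY230 SOX10 ChIP samples against the control, deposited by the authors, with a start, an end and a signal per region. Per the submitters' processing notes, FastQC, Bowtie 0.12.8, SAMtools 1.3.1, MACS2 2.1.1 and the build mm9 were used. Their parameters, the threshold of calling and how the signal was computed were not given in the sources used here. The list holds no library totals, and sample depth is therefore unknown.

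Members were taken by position. Chromosome length was the largest listed end, and window and density lengths count from position 0. The step of the signal (0.0479) was found from the 7282 regions narrower than 1500 bp and not at 0. In 99.9% of them, width times signal came within 0.05 steps of a whole multiple. The number of steps was divisible by 54 in 2856 regions, against at most 590 for any other length from 40 to 70. Read equivalents divide by both. They are a reading of the values and may be net of a control.

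Intervals are exact Poisson (densities) or Clopper-Pearson (shares). For medians, binomial intervals from the ranked values were used, only to label the alternatives. No test between stretches was run, since regions of 1 pooled list are not replicates. The members, lists and rules were chosen with earlier results of these data known. Named by rule were the 10 members with the highest signal, 5 regions on each side of the boundary, the 10 densest windows, runs of 6 or more members and the 3 longest gaps. Helper functions were tested on simulated data. Python 3.11.15, NumPy 2.4.6, pandas 2.3.3, SciPy 1.17.1 and Matplotlib 3.10.9 were used. The H3K27ac groups and inputs were not analysed here.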

Additional observations from a re-analysis of the deposited data

How the results depend on the processing

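No paired analysis was possible because both ChIP samples were pooled into 1 list, from which no sample can be left out either. The domain stood above the other autosomes in density (2.11 times), median signal (1.45 times), share of close pairs (1.45 times) and median width (1.25 times). The ratio was above 1 in all 22 values from alternatives, 5 or 6 for each of these 4 results. Because the domain was chosen by signal and density, its ratios for density, signal and close pairs were largely set above 1 by that choice. Width was not used in that choice, but it is not independent of signal. Of the 22 values, 16 lay within the 95% interval of the domain's main value, divided by the value of the other autosomes. For medians that interval comes from ranked values. None of these intervals measures the spread from a change of processing. Among the 50% of the list with the highest signal, the ratio was 3.62 for density, 1.17 for signal and 1.93 for close pairs. With neighbours under 10 kb joined, it was 1.84 for density and 1.37 for width, and the share of close pairs has no value by construction. Without the 5 densest other autosomes (19, 15, 13, 11 and 18) the density ratio was 2.52. The cause of the higher density, signal and width of the domain was not tested. Of the 50 densest windows, 17 lay in the domain, and 14 to 18 with other window sizes or offsets. The setting with isolated regions only was chosen after seeing the data. The planned motif and base composition results were not run, since no mm9 sequence was used here. Library totals were not given and the median member had 12.9 read equivalents, which limits the ranking of single members.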
